A study of Mus musculus with 18 samples.

Results

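Interferon-stimulated genes were followed across 6 groups of mouse livers that differed in dietary fat, calorie restriction and running. The set was a list of 39 gene symbols, and each gene was read from 1 probe set, the one with the highest mean over all arrays among the probe sets that carried that symbol alone. By this rule 37 of the 39 had a probe set among the 18193 genes of the array so represented. Isg15 was named only on a probe set that also carries Gm9706, and Ifi44 on none used here. Mx1 was too dim to be tested, at intensities of 82.1 to 95.9 on the 18 arrays, and the other 36 were tested among 14198 genes. Mx1 is known to be defective in this mouse strain.

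Liver RNA of 18 male C57BL/6J mice aged 62 weeks was hybridised to Affymetrix Mouse Genome 430 2.0 arrays, 1 array for each of the 3 mice in a group. From 5 weeks of age the mice ate a diet with 60% or 10% fat and were housed singly. The groups were HF+CR (high-fat diet under 30% calorie restriction), HF+Ex (high-fat diet with a running wheel), HF (high-fat diet ad libitum), LF+CR (low-fat diet under 30% restriction), LF+Ex (low-fat diet with a running wheel) and LF (low-fat diet ad libitum). The food of each restricted group was set from what the ad libitum mice on the same diet ate. The strain, sex and age were shared by all groups, no allele was altered, and the time of day and fed state at sampling were not given in the sources used here. Alb, the albumin gene that defines hepatocytes, lay between 17610.0 and 21654 on the arrays.

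Interferons are cytokines that cells release when they sense viral or misplaced nucleic acids. Type I interferons act through the receptor Ifnar1/Ifnar2 and a transcription complex that includes Stat2 and Irf9 and binds the interferon-stimulated response element (ISRE). Interferon gamma acts on the gamma-activated site (GAS) and through Irf1, and strongly induces guanylate-binding proteins, immunity-related GTPases and immunoproteasome subunits. In liver both hepatocytes and the resident macrophages, called Kupffer cells, respond, and most of these genes keep a low tonic level without infection.

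Promoters from RefSeq (build GRCm38.p6, 250 bases before to 50 after the start of each gene) were available for 29 of the 39 genes. The ISRE core, here a pair of GAAA blocks with any 2 bases between them, searched on both strands, occurred in 14 of them (48.3%), against 1079 of 27025 genes (3.99%). The GAS motif TTCNNNGAA, which is its own reverse complement, occurred in 7 (24.1%), against 2582 of all genes (9.55%). A match describes these letters and is not evidence of binding. The stretches below belong to GTPases and to genes called in a comparison below, and only to those with an ISRE core before the start. The called genes Samd9l, Usp18, Psmb9 and Dhx58 and the GTPase Iigp1 have no stretch, for want of a core or of a promoter. The stretches are written 5′ to 3′ on the strand of the gene with the ISRE cores in capitals. All lie before the start site.
Ifit1, chr19:34640775-34640823, plus strand: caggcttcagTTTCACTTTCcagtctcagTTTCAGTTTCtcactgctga
Ifit3, chr19:34583363-34583422, plus strand: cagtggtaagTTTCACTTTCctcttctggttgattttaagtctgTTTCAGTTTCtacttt
Rsad2, chr12:26456553-26456582, minus strand: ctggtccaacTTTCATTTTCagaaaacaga
Bst2, chr8:71537577-71537612, minus strand: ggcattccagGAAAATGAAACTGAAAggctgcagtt
Stat2, chr10:128270266-128270295, plus strand: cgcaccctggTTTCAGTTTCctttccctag
Gbp2, chr3:142620594-142620623, plus strand: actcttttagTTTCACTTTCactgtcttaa
Gbp3, chr3:142559989-142560024, plus strand: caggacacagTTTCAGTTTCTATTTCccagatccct
Igtp, chr11:58199512-58199541, plus strand: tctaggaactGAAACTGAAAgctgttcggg
Irgm1, chr11:48871425-48871460, minus strand: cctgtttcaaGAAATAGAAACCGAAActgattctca
Ifit1 and Ifit3 each held 2 separate cores, and in Bst2, Gbp3 and Irgm1 2 cores overlapped. In Bst2 a GAS match also overlapped the first core.

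The genes moved together from mouse to mouse. Within groups, after each group's mean was taken out, the mean Pearson correlation over all pairs of the 36 genes was 0.44 across the 18 arrays, against 0.03 for all genes tested. The 5 GTPases had the highest mean correlation of the classes, 0.81, and the 4 genes of the immunoproteasome and peptide transport followed with 0.72. Of the 36 genes, 24 correlated above 0.7 with the mean of the others, led by Ifit2 (0.94), which encodes a protein that inhibits viral translation, and Parp14 (0.93), an ADP-ribosyltransferase. Oas2, Mx2, Ifi27, Eif2ak2 and Trim25 lay under 0.2. These correlations describe arrays that share their scaling and groups. Without mouse LF+CR 2 the mean over pairs of the 36 genes was 0.35, and it was 0.29 without LF+CR 2, HF 1 and HF+Ex 3. The class means were not recomputed in this way. LF+CR 2 had the highest value of the 18 arrays in each of the 5 GTPases, so how far the ranking of classes rests on it is not known.

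**Figure D1:**
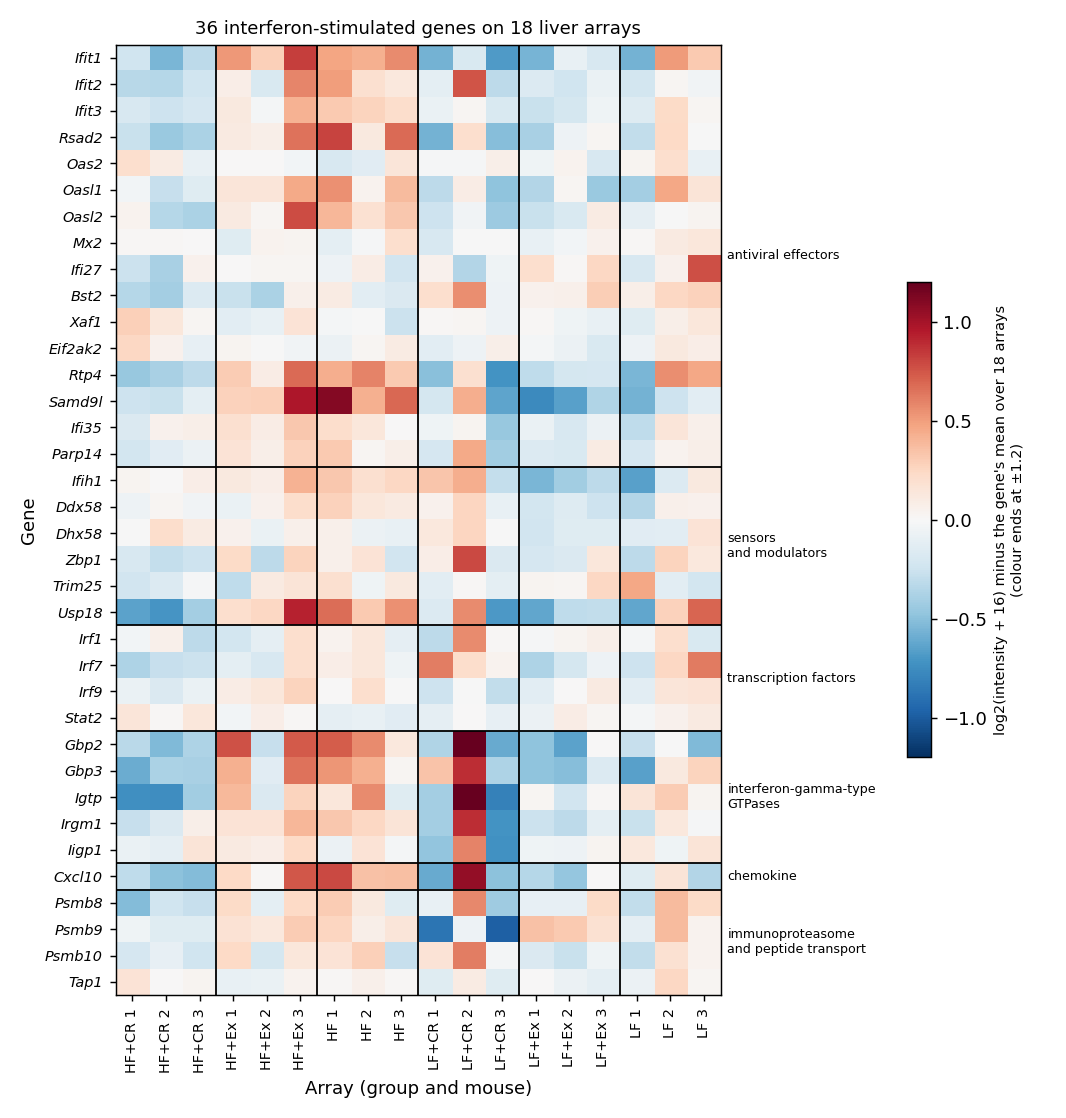
Deviation of log2(intensity + 16) of each of 36 interferon-stimulated genes (rows, by role) from its mean over 18 arrays (columns, by group), red above and blue below the mean. The HF+CR columns are mostly blue, with 8 to 11 of 36 genes above their mean, and the HF columns mostly red, with 23 to 29 above.

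On each array the genes were summarised by the median of their deviations from their own mean over 18 arrays, on the log2 scale. This median was -0.20, -0.21 and -0.14 in HF+CR mice, 0.11, 0.02 and 0.27 in HF+Ex mice, and 0.24, 0.14 and 0.10 in HF mice. It was -0.13, 0.23 and -0.30 in LF+CR mice, -0.17, -0.15 and -0.05 in LF+Ex mice, and -0.20, 0.15 and 0.08 in LF mice. The 3 HF+CR mice lay below every HF and HF+Ex mouse, whereas LF+CR and LF mice overlapped and LF+CR mice were spread the most. The 3 highest arrays, HF+Ex 3, HF 1 and LF+CR 2, were also the 3 with the highest scores on the first principal component of all genes tested (19.2, 21.2 and 23.6, against -14.5 to 8.56 on the other 15). HF+CR scores ran from -14.5 to -8.67 and HF scores from 4.76 to 21.2, so that this component moved with the same comparison. Its part in the results was not tested.

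**Figure D2:**
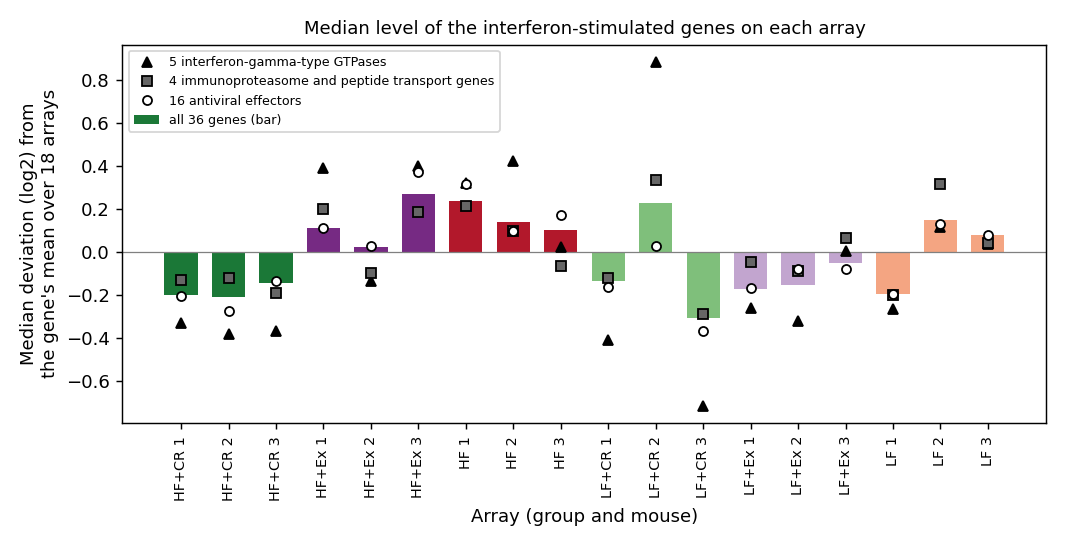
Median deviation (log2) of the interferon-stimulated genes from their own means over 18 arrays, for each array, over all 36 genes (bars) and over 3 classes of them (marks). HF+CR mice lie between -0.21 and -0.14 and HF mice between 0.10 and 0.24, while the LF+CR mice run from -0.30 to 0.23.

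4 of the 18 livers carried transcripts of pancreas: the pancreatic colipase gene Clps had intensities of 730, 418, 320 and 221 in HF+Ex 1, LF+CR 1, LF+Ex 3 and LF 1, and of 45.9 to 53.1 on the other arrays. None of these 4 mice belonged to HF+CR or HF. Array means lay between 304.9 and 307.8, and the intensity that served as the dim threshold, the 40th percentile of an array, between 88.2 and 97.6.

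Calorie restriction on the high-fat diet was the pair comparison with the most calls among these genes. In HF+CR against HF livers, 5 of 36 fell (adjusted p under 0.05, limma over all genes tested) and none rose, where 2.55% of all genes tested fell and 3.54% rose. The 5 were the antiviral effectors Ifit3, Rsad2, Samd9l and Ifit1 and the feedback inhibitor Usp18. Values of 21 genes were lower in all HF+CR mice than in every HF mouse, where 13.4% of all genes were, and 2 were higher in all (17.9% of all genes). The median log2 difference was -0.26 over the 36 genes and 0.04 over all genes, and 30 of the 36 lay below 0 (39.1% of all genes did).

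Ifit1, an RNA-binding protein that blocks translation of viral messages, had intensities of 148, 116 and 139 in HF+CR livers, against 252, 243 and 269 in HF livers. Its means were 134 ± 16.3 and 255 ± 13.3 (SD, n = 3 each), and it fell by 0.85 on the log2 scale (SE 0.22, adjusted p = 0.0350). All HF+CR values lay well below all HF values, at a little over the level of the dim threshold.

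Ifit3, which partners Ifit1 in the IFIT complex, had intensities of 279, 268 and 277 in HF+CR livers, against 402, 389 and 375 in HF livers. It fell by 0.48 (SE 0.11, adjusted p = 0.0169), with means of 275 ± 5.91 and 388 ± 13.7 (SD, n = 3 each). The mice of both groups differed little among themselves, and Ifit3 had the smallest adjusted p of the set in this comparison.

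Rsad2 encodes viperin, which makes a nucleotide that stops viral polymerases. Its intensities were 291, 254 and 269 in HF+CR livers, against 631, 384 and 577 in HF livers, and it fell by 0.90 (SE 0.22, adjusted p = 0.0269). The HF mice varied more than the HF+CR mice, and the lowest HF mouse was still above the highest HF+CR mouse. The other 2 Rsad2 probe sets, both dimmer, gave differences of -0.22 and -0.68, the same sign with smaller sizes.

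Samd9l, an interferon-induced restraint on viral replication and cell growth, had intensities of 225, 222 and 248 in HF+CR livers, against 600.1, 368 and 447 in HF livers. It fell by 0.95 (SE 0.24, adjusted p = 0.0320). HF 1 was the highest of the 18 arrays, and the groups did not overlap.

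Usp18, which strips Isg15 from proteins and damps signalling at the type I receptor, had intensities of 145, 138 and 173 in HF+CR livers, against 384, 297 and 351 in HF livers. The fall of 1.10 (SE 0.31, adjusted p = 0.0476) was the largest of the 36 genes in this comparison, and again no HF+CR mouse reached any HF mouse. The Usp18 call was lost in 12 of 20 alternatives, against 2 of 20 for Ifit3.

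**Figure D3:**
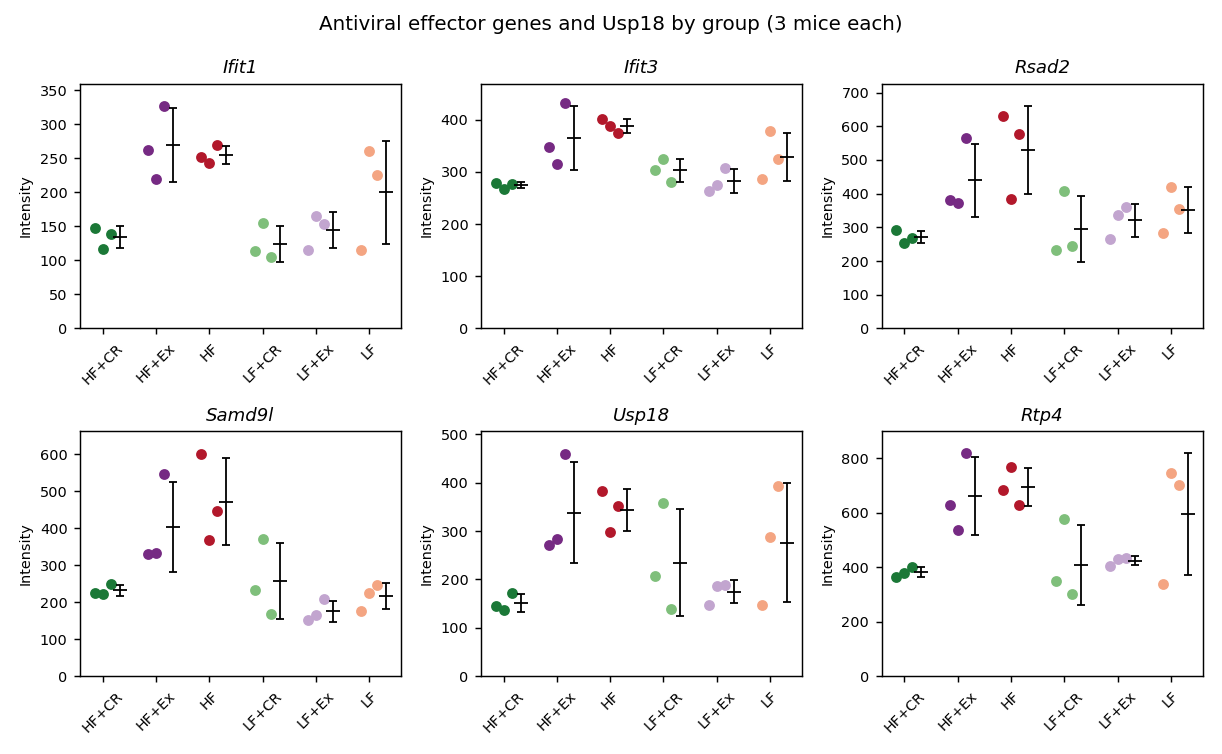
Intensity of Ifit1, Ifit3, Rsad2, Samd9l, Usp18 and Rtp4 in each mouse (points) with group means and SD bars (n = 3), in 6 groups. For Ifit1, HF+CR mice sit at 116 to 148, below all HF mice at 243 to 269.

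These calls rested on 3 mice per group. Leaving out one mouse of these groups at a time gave 0 calls without HF 1 or HF+CR 2, 1 (Ifit3) without HF 3 or HF+CR 1, 2 (Ifit3 and Samd9l) without HF+CR 3, and 3 (Ifit3, Rsad2 and Samd9l) without HF 2. The median over the 36 genes then ran from -0.33 to -0.21. The other 12 arrays enter only through the shared spread. Without LF+CR 2, an array of neither group, 11 genes passed: Stat2 rose, and Ifit2, Rtp4, Gbp2, Igtp and Cxcl10 fell beside the 5 above. LF+CR 2 was singled out by its high values in genes of this set, so a smaller spread follows from leaving it out. Calls gained without it, here and in other comparisons, are therefore no support for a change. Without any one of the other 11 arrays 4 to 6 genes passed, and Ifit1, Ifit3, Rsad2 and Samd9l were among them each time. Without LF+CR 2, HF 1 and HF+Ex 3 together 6 genes fell, 3 of them (Cxcl10, Ifit2 and Igtp) beyond the 5 above, of which Ifit1 and Usp18 no longer passed. As with all arrays, 21 genes did not overlap on the lower side (16.5% of all genes). The share of all genes called was not counted in the fits with arrays left out, so a gain in calls cannot be set against it.

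None of the other 12 effectors passed the test with all arrays. Rtp4, an interferon-induced receptor transporter protein, had intensities of 364, 379.9 and 400.2 in HF+CR livers, against 685, 769 and 629 in HF livers (log2 difference -0.83, adjusted p = 0.0613, and 0.0304 without LF+CR 2). Oasl2, of the oligoadenylate synthetase family, differed by -0.53 (adjusted p = 0.0789) and Ifit2 by -0.58 (adjusted p = 0.121, and 0.0296 without LF+CR 2). LF+CR 2 was the highest LF+CR mouse in Rtp4 and Ifit2, so the smaller p without it is no support for a fall. Of the 16 effectors tested, 13 lay below 0 in HF+CR, with a median difference of -0.38. The 3 above 0 were Xaf1, a pro-apoptotic factor (0.24), Oas2 (0.13) and Eif2ak2, the kinase PKR (0.05).

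Among sensors and modulators, Ifih1 (MDA5, a sensor of long double-stranded RNA) had intensities of 583, 573 and 603 in HF+CR livers, against 716, 653 and 679 in HF livers. The difference of -0.21 had an adjusted p of 0.464, and the groups did not overlap. Ddx58 (RIG-I) differed by -0.20 and Dhx58 (LGP2), a regulator of both sensors, by 0.13.

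None of the 4 transcription factors passed the test with all arrays. Irf7, the factor that amplifies type I interferon production, had intensities of 239.8, 257 and 261 in HF+CR livers, against 333, 348 and 303 in HF livers (log2 difference -0.36, adjusted p = 0.229). Irf9 differed by -0.18 and Irf1 by -0.12. Stat2, the partner of Irf9 in type I interferon signalling, had intensities of 222, 200.5 and 219 in HF+CR livers, against 183, 186 and 179 in HF livers, and so lay on the other side, with a difference of 0.21 (adjusted p = 0.0514, and 0.0421 without LF+CR 2). LF+CR 2 was the highest LF+CR mouse in Stat2 too, so the smaller p without it is no support for a rise. A second Stat2 probe set, about as bright, gave -0.05.

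All 5 GTPases lay below 0 in HF+CR, with a median difference of -0.78, and none passed the test with all arrays. Igtp, an immunity-related GTPase that acts at parasite vacuoles and lipid droplets, had intensities of 525, 521 and 658 in HF+CR livers, against 971, 1313 and 796 in HF livers (log2 difference -0.82, adjusted p = 0.250). Gbp3, a guanylate-binding protein, had 139, 164 and 162 in HF+CR livers, against 321, 297 and 222 in HF livers (-0.78, adjusted p = 0.111). Both left a gap between the groups. The spread behind their adjusted p is shared by all 6 groups and includes mouse LF+CR 2, described below. Without that array Igtp (-0.82, adjusted p = 0.0137) and Gbp2 (-0.88, adjusted p = 0.0408) were called lower in HF+CR against HF. LF+CR 2 was singled out by its high values in such genes, so a smaller spread follows from leaving it out.

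Cxcl10, the chemokine that draws T cells and NK cells through the receptor Cxcr3, had intensities of 87.1, 74.6 and 73 in HF+CR livers, against 205, 147 and 148 in HF livers. All HF+CR values were under the dim threshold of their arrays, so the difference of -0.94 (adjusted p = 0.0931, and 0.00673 without LF+CR 2) depends on the offset of 16 added before taking logs. Psmb8, an immunoproteasome subunit that trims antigen peptides, differed by -0.44 (adjusted p = 0.220), and Tap1, the peptide transporter, by 0.04.

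**Figure D4:**
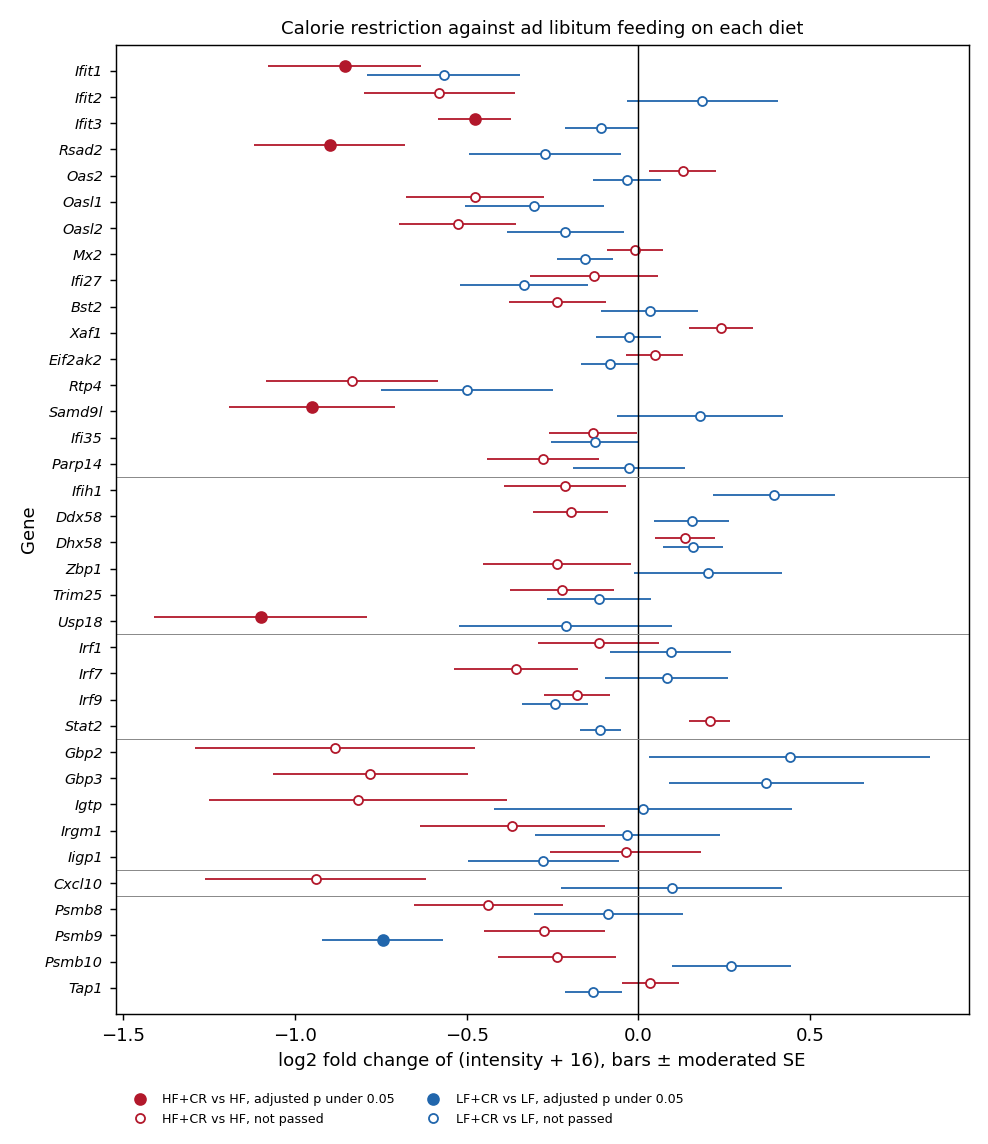
log2 difference of restricted against ad libitum livers on the high-fat diet (HF+CR vs HF) and on the low-fat diet (LF+CR vs LF) for each of 36 genes, with bars of 1 moderated SE. On the high-fat diet 30 of 36 points lie below 0, and on the low-fat diet 22 of 36.

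Summed levels of liver macrophage markers were lower in HF+CR than in HF livers. None of the 12 Kupffer cell markers passed the test in HF+CR against HF, their median difference was -0.54, and their summed intensity was 6948 to 8239 in HF+CR livers, against 8718 to 13091 in HF livers. None of the 8 monocyte and recruited macrophage markers tested passed either (median -0.41), with sums over 9 measured markers of 2032 to 2455 in HF+CR livers, against 2747 to 3816 in HF livers. Cd163, Trem2 and Cx3cr1 had higher means in HF+CR. Cd163, a scavenger receptor of resident macrophages, had 331, 354 and 273 in HF+CR livers, against 71.9, 299 and 192 in HF livers. No defining marker of either list was at 0, since array intensities never are. Sums for NK cell markers overlapped, at 626 to 673 in HF+CR livers, against 618 to 683 in HF livers. Sums for T cell markers were 929.6 to 1077 in HF+CR livers, against 876 to 948 in HF livers, with overlap. In whole liver, fewer cells of a type and less RNA per cell cannot be told apart, and the part of these markers in the result was not tested.

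HF+CR livers were also set against HF+Ex livers, which shares the HF+CR arrays with the comparison above. Ifit1 fell, and no other gene of the 36 was called (1.31% of all genes tested fell and 1.41% rose). Ifit1 had intensities of 148, 116 and 139 in HF+CR livers, against 262, 219.8 and 327 in HF+Ex livers (log2 difference -0.91, SE 0.22, adjusted p = 0.0404). The 20 genes that did not overlap were all lower in HF+CR, where 10.1% of all genes were lower and 18.5% higher in this way. The call was lost without any one of HF+Ex 1, HF+Ex 3 or the 3 HF+CR mice, and without HF+Ex 2 Ifit3 was called beside Ifit1. Of the arrays outside these groups, it was also lost without LF+CR 1, HF 2 or HF 3, and without LF+CR 2 Cxcl10, Igtp and Usp18 were called beside Ifit1.

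High-fat feeding by itself changed none of the 36 genes at the threshold. In HF against LF, limma called 0 members, where 0.627% of all genes rose and 0.275% fell. At an unadjusted p under 0.05, 5 were higher and 1 lower (8.47% and 7.83% of all genes), and a fit with array weights called 2. The lowest p belonged to Samd9l, with intensities of 600.1, 368 and 447 in HF livers, against 178, 225 and 247 in LF livers (log2 difference 1.05, SE 0.24, adjusted p = 0.0509). The groups were far apart, with the lowest HF mouse above the highest LF mouse. Ifih1 followed with 716, 653 and 679 in HF livers, against 356, 506 and 618 in LF livers (0.49, adjusted p = 0.198), again without overlap. Stat2 had 183, 186 and 179 in HF livers, against 195, 206 and 216 in LF livers (-0.15, adjusted p = 0.222). Samd9l passed the test without HF 2, and also without LF+CR 2, LF+CR 3 or HF+Ex 3, which belong to neither group. Values without overlap were higher for 8 genes and lower for 1 (10.9% and 11.7% of all genes).

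The LF mice themselves differed. LF 1 had an Ifit1 intensity of 115, against 259.9 and 225 in LF 2 and LF 3, and an Rtp4 intensity of 339.6, against 746 and 699.8. LF 1 is among the 4 mice with pancreatic transcripts, whose part in this spread was not tested.

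The diets were also compared among runners. In HF+Ex against LF+Ex, Samd9l rose and no other gene of the 36 was called, where 1.06% of all genes tested rose and 0.662% fell. Samd9l had intensities of 332, 334 and 545 in HF+Ex livers, against 153, 167 and 208 in LF+Ex livers (log2 difference 1.10, SE 0.24, adjusted p = 0.0295). Ifit1 had 262, 219.8 and 327 in HF+Ex livers, against 115, 165 and 153 in LF+Ex livers (0.83, adjusted p = 0.0728). Ifih1 had 621, 604 and 767 in HF+Ex livers, against 384, 423 and 457 in LF+Ex livers (0.63, adjusted p = 0.0845). In these genes every HF+Ex mouse was above every LF+Ex mouse. In all, 15 genes were higher without overlap and none lower (11.8% and 10.9% of all genes), and the median was 0.22 against -0.01 for all genes. The Samd9l call was lost without LF+Ex 1, LF+Ex 2, HF+Ex 1 or HF+Ex 3. Without LF 1, of neither group, Ifit1 and Ifih1 were called beside it.

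On the low-fat diet, restriction left most of these genes within the spread of the mice. In LF+CR against LF, Psmb9 fell and no other member was called (3.27% of all genes tested fell and 2.3% rose), and 1 gene lay lower and none higher without overlap (11.2% and 8.99% of all genes). Psmb9 encodes a catalytic subunit of the immunoproteasome. Its intensities were 218, 395 and 201 in LF+CR livers, against 382, 542 and 425 in LF livers (log2 difference -0.74, SE 0.18, adjusted p = 0.0213). LF+CR 1 and LF+CR 3 were far below the LF mice and LF+CR 2 was among them, so the groups overlapped. The calls depended on single mice. There were 0 without LF 2, LF 3 or LF+CR 1, 1 (Ifih1, higher) without LF+CR 3, and 3 (Ifit1, Psmb9 and Rtp4) without LF 1.

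Mouse LF+CR 2 stood apart in the GTPases. Igtp had an intensity of 3009 in this mouse, against 662 and 496 in LF+CR 1 and LF+CR 3. Irgm1, a regulator of autophagy and of the other GTPases, had 1309, against 524 and 422. Iigp1, a GTPase that attacks parasite vacuoles, had 5298, against 2524 and 2106.

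LF+CR 2 held the highest value of the 18 arrays in each of these 3 genes. Gbp2, a guanylate-binding protein, had 448 in LF+CR 2, against 114 and 93.7 in the other LF+CR mice, and Cxcl10 had 248, against 67.5 and 74.5. Among the effectors, Ifit2 was 208 in LF+CR 2, against 106 and 90.2, Samd9l was 371, against 232 and 169, and Rtp4 was 577, against 350.3 and 299.9. Ifit1 was 154, against 114 and 105, and Ifit3 was 326, against 303 and 281. The sum of Kupffer cell markers in LF+CR livers ran from 8530 to 14856.

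With all arrays none of the 5 GTPases passed in LF+CR against LF, and their median difference was 0.01. LF+CR 2 was set apart above by its values in Igtp, Irgm1 and Iigp1. A lower LF+CR mean and a smaller SE in these genes follow from leaving it out and are no support for a fall. Without LF+CR 2, 4 genes were called lower in LF+CR against LF, with 2 LF+CR arrays left. Iigp1 had a log2 difference of -0.67 (SE 0.10, adjusted p = 0.00177), Igtp of -0.77 (SE 0.20, adjusted p = 0.0413), Irgm1 of -0.51 (SE 0.13, adjusted p = 0.0382) and Psmb9 of -1.03 (SE 0.11, adjusted p = 1.57e-04). Over the 36 genes, 30 then lay below 0 with a median of -0.20. With all arrays 22 did (53% of all genes) and the median was -0.06. The LF livers had Iigp1 intensities of 3819, 3371 and 3903, above both remaining LF+CR mice.

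**Figure D5:**
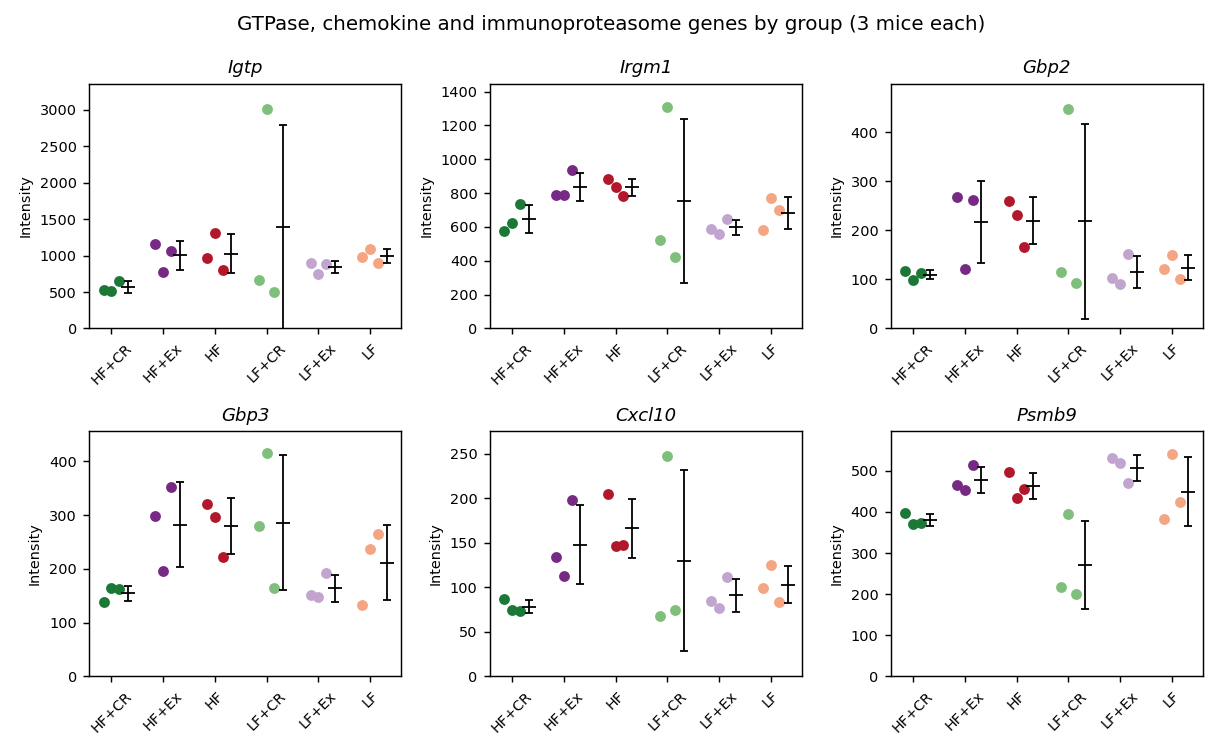
Intensity of the GTPase genes Igtp, Irgm1, Gbp2 and Gbp3, of Cxcl10 and of Psmb9 in each mouse (points) with group means and SD bars (n = 3; the lower bar of Igtp in LF+CR is cut at 0). One LF+CR mouse lies far above the rest for Igtp (3009, against 496 and 662) and Irgm1 (1309, against 422 and 524).

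Between restriction and running on the low-fat diet 2 of the 36 genes were called, 1 in each direction, at shares below those of all genes. In LF+CR against LF+Ex, Dhx58 rose and Psmb9 fell, where 4.18% of all genes tested rose and 5.13% fell. Psmb9 had intensities of 218, 395 and 201 in LF+CR livers, against 532, 518 and 470.4 in LF+Ex livers (log2 difference -0.92, SE 0.18, adjusted p = 0.00353). Here even LF+CR 2 was below every LF+Ex mouse, and Psmb9 was called without any 1 of the 6 mice. Dhx58 had 189.7, 209.5 and 173 in LF+CR livers, against 146, 154 and 155 in LF+Ex livers (0.30, SE 0.09, adjusted p = 0.0432). A dimmer Dhx58 probe set gave 0.07. The Dhx58 call held without LF+CR 3, when Ifih1 and Gbp3 joined, and was lost without any other mouse of these groups. It was also lost without HF 2, HF 3, HF+Ex 1 or HF+CR 3, of neither group, and without LF 1 Ifih1 and Irf7 were called beside both genes. Non-overlapping genes were 5 higher and 2 lower (14.6% and 12.8% of all genes).

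Between the restricted groups, Bst2 fell in HF+CR against LF+CR livers and no other member was called (3.32% of all genes tested fell and 5.62% rose). Bst2, or tetherin, holds budding virus on the cell surface. Its intensities were 951, 904 and 1076 in HF+CR livers, against 1390.0, 1781 and 1159 in LF+CR livers (log2 difference -0.54, SE 0.14, adjusted p = 0.0266). The groups did not overlap, although HF+CR 3 and LF+CR 3 were close. Bst2 was not called without LF+CR 1, LF+CR 2, HF+CR 1 or HF+CR 2, and without LF+CR 2 Iigp1 and Psmb9 were called instead, both higher in HF+CR. Without LF+CR 3 Gbp3 and Irf7 were called beside Bst2. In all, 3 genes were higher and 6 lower without overlap (16.8% and 10.2% of all genes).

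No member passed the test for voluntary running on either diet. In HF+Ex against HF limma called 0 of 36 members, and 0 genes of all tested (0% called). At an unadjusted p under 0.05, 1 was higher (1.46% of all genes), and array weights also called 0. The lowest p belonged to Stat2, with 193, 210.4 and 201 in HF+Ex livers, against 183, 186 and 179 in HF livers (log2 difference 0.13), followed by Rsad2 (-0.26) and Irf9 (0.10), all with an adjusted p of 0.9997. The highest and lowest of the 36 differences were 0.13 and -0.26, and 1 gene was higher and none lower without overlap (3.8% and 4.29% of all genes).

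In LF+Ex against LF limma called 0 members, where 0.00704% of all genes rose and 0% fell. At an unadjusted p under 0.05, 1 was lower (2.53% of all genes), and array weights also called 0. Irf7 had 239.5, 269.5 and 299.9 in LF+Ex livers, against 261, 375 and 494 in LF livers (log2 difference -0.42, adjusted p = 0.9997), with overlap. Ifit3 differed by -0.21 and Usp18 by -0.52, with the same adjusted p. The signs were uneven, with 33 of 36 below 0 (58.3% of all genes were) and a median of -0.12 against -0.02 for all genes. Values without overlap were lower for 2 genes and higher for none (6.01% and 2.82% of all genes). Without LF 1 and LF+Ex 3, which carried pancreatic transcripts, 28 genes were lower without overlap in 2 mice against 2, where 18% of all genes were, and none was called. LF 1 had the lowest median deviation of the LF mice (-0.20, against 0.15 and 0.08). LF+Ex 3 had the highest of the LF+Ex mice (-0.05, against -0.17 and -0.15). A wider gap therefore follows from leaving these 2 out and is no support for a fall.

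The question whether restriction acted differently on the 2 diets was asked with an interaction term, the HF+CR minus HF difference less the LF+CR minus LF difference. Stat2 alone of the 36 passed, on the higher side (3.35% of all genes tested passed on the higher and 2.39% on the lower side). Its interaction was 0.32 (SE 0.08, adjusted p = 0.0385). Stat2 had intensities of 222, 200.5 and 219 in HF+CR livers, against 183, 186 and 179 in HF livers, and of 183, 199 and 185 in LF+CR livers, against 195, 206 and 216 in LF livers. The first pair of groups did not overlap and the second did. The second Stat2 probe set gave -0.05 for HF+CR against HF and 0.04 for LF+CR against LF, so the probe sets disagree in sign. The call was lost without any one of LF 2, LF 3, LF+CR 1, LF+CR 3, HF 1, HF 3, HF+CR 1 or HF+CR 3, and in 15 of 26 alternatives in all.

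Of the 16 effectors 11 interactions lay below 0 and 5 above, and none passed. Samd9l stood at -1.13 (SE 0.34, adjusted p = 0.0644) and the GTPase Gbp3 at -1.15 (adjusted p = 0.102). Over the 36 genes 26 interactions were below 0 (39.9% of all genes were), with a median of -0.30 against 0.05 for all genes. Without LF+CR 2, HF 1 and HF+Ex 3 that median was -0.02. Single mice decided the calls: Iigp1, Psmb9 and Stat2 passed without LF+CR 2, Gbp3, Ifih1 and Samd9l without LF+CR 3, and Samd9l and Stat2 without HF+Ex 3. Restriction was therefore not shown to act differently on the 2 diets for Ifit1, Ifit3, Rsad2, Samd9l or Usp18. The interaction of running with diet called 0 members (0% of all genes passed on the higher and 0.00704% on the lower side), 0 at an unadjusted p under 0.05 (2.52% of all genes) and 0 with array weights. Its lowest p belonged to Stat2 (0.16), Dhx58 (0.18) and Ifit1 (0.43), each with an adjusted p of 0.9996.

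Over all 6 groups at once, an F-test called 6 of the 36 genes, Ifit1, Ifit3, Rsad2, Samd9l, Bst2 and Psmb9, where 14.3% of all genes tested were called. The count was 15 without LF+CR 2, 11 without LF 1, and 3 without LF+CR 1 or HF+CR 2. The shares of all genes called in these fits were not counted. Mean intensities ordered Samd9l as HF (472 ± 118), HF+Ex (404 ± 123), LF+CR (258 ± 103), HF+CR (232 ± 14.2), LF (216 ± 35.5) and LF+Ex (176 ± 28.6). Ifit1 ran from HF+Ex (269 ± 54) and HF (255 ± 13.3) through LF (199.8 ± 75.9) and LF+Ex (145 ± 26.1) to HF+CR (134 ± 16.3) and LF+CR (124 ± 26.3), all SD with n = 3. Neighbours in these orders differed by less than the larger of their SDs, apart from HF+Ex with LF+CR and LF with LF+Ex in Samd9l.

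Upstream of these genes, the interferons themselves were dim. Of 14 ligand and receptor genes 10 were measured and 6 tested, and Ifnb1 and Ifng, the genes of interferon beta and gamma, were below the filter, at 57.9 to 67.2 and 54.4 to 64.2. Ifnar2, a chain of the type I receptor, fell in LF+CR livers, with 862, 688 and 853, against 1169.8, 1195 and 1214 in LF livers (log2 difference -0.57, SE 0.08, adjusted p = 4.95e-04). It also fell against LF+Ex (-0.49, adjusted p = 0.00107), and the groups were far apart. Ifna2, an interferon alpha gene, had 126, 137 and 119.8 in HF+CR livers, against 104, 97.1 and 87.2 in HF livers, near the dim threshold. It rose in HF+CR against HF (0.36, adjusted p = 0.00716) and against HF+Ex (0.28, adjusted p = 0.0404).

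Of 14 signalling genes tested, Ptpn2, a phosphatase that damps Jak and Stat signalling, rose in LF+CR against LF+Ex (0.28, adjusted p = 0.0165). It fell in HF+CR against LF+CR (-0.29, adjusted p = 0.0139), where Irf5 rose (0.33, adjusted p = 0.0117). None of the signalling genes was called in HF+CR against HF or LF+CR against LF. Among 14 genes of nucleic acid sensing, Ikbke, a kinase that activates Irf factors, rose in LF+CR, with 241, 312 and 174, against 113, 153 and 138 in LF livers (0.75, adjusted p = 0.0263). None was called in HF+CR against HF.

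A further 44 interferon-stimulated genes outside the 36 were tested as a wider list. In HF+CR against HF, Sp110, a nuclear body protein, rose (0.43, SE 0.08, adjusted p = 0.00558) and Lgals3bp, a secreted glycoprotein that binds galectin, fell (-0.76, SE 0.20, adjusted p = 0.0338). Lgals3bp had 618, 581 and 736 in HF+CR livers, against 1278, 997 and 1034 in HF livers. The median of the 44 was -0.08, closer to the 0.04 of all genes than the -0.26 of the 36. In LF+CR against LF, Trim34a (-0.50, adjusted p = 0.0332) and Sp110 (-0.34, adjusted p = 0.0189) fell. Sp110 thus moved in opposite directions on the 2 diets.

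Of 11 genes of class I antigen presentation, which display the peptides the immunoproteasome makes, H2-D1 fell and Calr rose in HF+CR against HF. H2-D1, a class I heavy chain, had 4614, 4459 and 4626 in HF+CR livers, against 5887, 5420.2 and 5581 in HF livers (-0.30, SE 0.08, adjusted p = 0.0396). Calr, a chaperone of the endoplasmic reticulum, differed by 0.55 (adjusted p = 0.00579), and it also rose in LF+CR against LF (0.40, adjusted p = 0.0298). Against LF+CR livers, H2-D1 (-0.27, adjusted p = 0.0477), Erap1, a peptide-trimming enzyme (-0.45, adjusted p = 0.0197), and Psme1, a proteasome activator (-0.48, adjusted p = 0.0184), fell in HF+CR.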

How the data were processed

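Per the labels' protocols, RNA came from a Trizol extraction and was hybridised as biotinylated cRNA. The authors deposited 1 linear intensity per probe set and array. How they summarised and normalized it is not given in the sources used here. Of 45037 probe sets that are not controls, 34945 carried 1 gene symbol and were used. Genes entered the tests where the probe set exceeded the 40th percentile of an array on at least 3 arrays, which left 14198 of 18193 genes. Probe sequences were not used.

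With limma 3.58.1 (R 4.3.3), log2(intensity + 16) of the 18 arrays was modelled by 6 group means. The residual degrees of freedom were 12 and the prior ones 3.61, and p-values were adjusted by Benjamini-Hochberg over all genes tested, with a threshold of 0.05. Every adjusted p in the text comes from this fit, unless the sentence names arrays left out. SE is the moderated standard error. The code was tested on simulated data. For arrays the number of mice limits the precision. Correlations within groups were also computed in R. Promoter motifs and plots were made in Python 3.11.15 with pandas 2.3.3 and matplotlib 3.10.9.

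The members and lists were chosen with earlier results of these data known. In each comparison all members called were named, or, with none called, the 3 of lowest p as values; members named beyond this were chosen after their values were seen. The replicate numbers were not taken to pair the mice: 10 of 45 same-numbered correlations of deviations exceeded 0.1, over a range of -0.41 to 0.34. Mice of different numbers were not correlated, so this cannot decide whether a batch follows the numbers. Alternatives covered scaling, offset, filter, probe sets, variance model, array weights, block, arrays fitted and each mouse left out, of the groups compared and of the others.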

Additional observations from a re-analysis of the deposited data

Results flagged for a closer look

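The effect of calorie restriction differed between the diets by an interaction term in limma for 4 genes of the interferon lists. They came from the 36 members and from lists of 6, 14, 14, 44 and 11 genes tested. Of all genes tested 3.35% passed on the higher and 2.39% on the lower side, so the 4 are described singly and not as a trait of the lists. For Stat2, a member, the difference was 0.32 on the log2 scale (adjusted p = 0.0385), with the values by mouse given above. The call was lost in 15 of 26 alternatives, and the second Stat2 probe set gave -0.05 for HF+CR against HF and 0.04 for LF+CR against LF. For Sp110 it was 0.76 (adjusted p = 8.68e-04): intensities were 199, 178 and 182 in HF+CR livers, against 128, 131 and 145 in HF livers, and 123, 111 and 119.6 in LF+CR livers, against 162, 149 and 147 in LF livers. Both pairs of groups were apart, in opposite directions.

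Ptpn2 had a difference of -0.38 (adjusted p = 0.0328), with intensities of 319, 305 and 278 in HF+CR livers, against 325, 345 and 324 in HF livers, and of 393, 341 and 382 in LF+CR livers, against 334, 299.5 and 303 in LF livers. Rnaseh2b, a subunit of an enzyme that removes ribonucleotides from DNA, had a difference of -0.76 (adjusted p = 0.0395). Its intensities were 264, 309.7 and 287 in HF+CR livers, against 436, 337 and 369.5 in HF livers, and 369, 524 and 349 in LF+CR livers, against 291, 337 and 308 in LF livers. In both genes each pair of groups was apart, lower in HF+CR and higher in LF+CR.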

How the results depend on the processing

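The 24 named fold changes were recomputed under 504 combinations of result and alternative: 408 kept their direction and side of the threshold, 90 lost the call, 6 gained one and 0 reversed. In HF+CR against HF, 5 members were called, 12 with array weights, 13 with only the arrays of the groups compared and 3 with the mean of a gene's probe sets. Array weights gave 17 for the F-test, 5 for LF+CR against LF, 4 each for HF+CR against HF+Ex, HF+Ex against LF+Ex and LF+CR against LF+Ex, 3 each for HF+CR against LF+CR and the restriction interaction, and 2 for HF against LF. With only the arrays of the groups compared, LF+CR against LF, LF+CR against LF+Ex, HF+CR against LF+CR and the restriction interaction had 0. In that setting HF+Ex against LF+Ex had Ifih1 called and Samd9l no longer. Quantile normalization gave 2 for HF+CR against LF+CR and 0 for the interaction. Centring the arrays gave 2 for HF+CR against HF+Ex, 1 for LF+CR against LF+Ex and 0 for the interaction, and the mean of probe sets gave 1 and 0 for the last 2. A filter at the 60th percentile gave 2 for HF+CR against LF+CR and 1 for HF against LF. The share of all genes called was not counted under these alternatives, so a change in members called cannot be set against it.

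The replicate block gave 0 calls for HF+CR against HF+Ex, HF+Ex against LF+Ex and the restriction interaction, 1 for LF+CR against LF+Ex and 4 for HF+CR against HF. It was fitted although the numbers were not taken to pair the mice, and why calls were lost there was not tested.

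4 alternatives were chosen after seeing the data. Without LF+CR 2, HF 1 and HF+Ex 3 the calls were 10 for the F-test, 3 for LF+CR against LF, 2 for HF+CR against LF+CR, 2 for the restriction interaction, 1 for HF against LF and 0 for HF+CR against HF+Ex. Without the 4 arrays with pancreatic transcripts the F-test called 3, and 0 were called for HF+CR against HF+Ex, HF+CR against LF+CR, HF+Ex against LF+Ex, LF+CR against LF, LF+CR against LF+Ex and the interaction. With the difference of the clock genes Arntl and Dbp as a covariate, HF against LF had 1, LF+CR against LF+Ex 1 and the interaction 2.

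Leaving out 1 mouse of the groups compared at a time gave 0 to 3 calls for HF+CR against HF, HF+CR against LF+CR and the restriction interaction, 0 to 2 for HF+CR against HF+Ex, 0 to 1 for HF against LF and HF+Ex against LF+Ex, 0 to 4 for LF+CR against LF, 1 to 4 for LF+CR against LF+Ex and 3 to 15 for the F-test. Leaving out 1 mouse of the other groups, the fourth of the alternatives above, gave 4 to 11 for HF+CR against HF (11 without LF+CR 2), 0 to 4 for HF+CR against HF+Ex, 1 to 4 for LF+CR against LF+Ex, 1 to 3 for HF+Ex against LF+Ex, 1 to 2 for HF+CR against LF+CR and the restriction interaction, 0 to 1 for HF against LF and 1 for LF+CR against LF. Running on either diet and its interaction with diet had 0 calls in all these fits. The causes of these differences were not tested, beyond the fewer arrays or genes that some alternatives use.

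With 3 mice per group the median SE of a pair comparison was 0.18 for the members, against 0.09 for all genes tested. The shares called in the members and in all genes therefore rest on unlike spreads. Genes near the dim threshold, such as Cxcl10, Ifit2 and Gbp2, have differences that background can shrink.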

Other observations

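The probe set that names Isg15 together with Gm9706 had intensities of 153, 160.03 and 167 in HF+CR livers, 229, 206 and 271 in HF+Ex livers and 242, 207 and 223 in HF livers. In the other groups it had 202, 216 and 132 in LF+CR livers, 138, 146 and 159 in LF+Ex livers and 142, 251 and 216 in LF livers. Isg15 encodes the ubiquitin-like modifier that Usp18 removes. Every HF+CR mouse was below every HF+Ex and HF mouse, and the share of the signal from each of the named genes is not known. The promoter of Isg15 held 3 ISRE cores.

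Some markers of other liver cells were also called in HF+CR against HF, where 2.55% of all genes tested fell and 3.54% rose. Of 7 sinusoidal endothelium markers 2 fell and none rose, with a median of -0.14. Lyve1, a hyaluronan receptor of sinusoidal endothelium, had intensities of 155, 163 and 122 in HF+CR livers, against 348, 309.9 and 337 in HF livers (log2 difference -1.10, SE 0.22, adjusted p = 0.00990), and 157, 140.1 and 152 in LF livers, against which HF livers were higher (1.07, adjusted p = 0.0351). Fcgr2b, an Fc receptor of the same cells, differed by -0.31 (adjusted p = 0.0266) in HF+CR against HF. Kdr, a growth factor receptor of endothelium, had 615, 695 and 663 in HF+CR livers, against 626, 618 and 641 in HF livers, with overlap. In the other lists Rgs5, 1 of 7 stellate cell markers tested, fell (-0.63, adjusted p = 0.0449). No marker of the neutrophil, T cell, B and plasma cell, NK cell, conventional dendritic cell, cholangiocyte or pancreatic acinar lists was called. Of 7 hepatocyte genes tested, Tat (0.82, adjusted p = 0.00148) and Cps1 (0.34, adjusted p = 0.0165) rose. Of 3 red blood cell genes tested, Alas2 (0.49, adjusted p = 0.00811) and Slc4a1 (0.38, adjusted p = 0.0368) rose. Spib, 1 of 5 genes listed for plasmacytoid dendritic cells, rose as well (0.34, adjusted p = 0.0349). Their relation to the interferon-stimulated genes was not tested.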
